A study of Bos grunniens with 36 samples.

Results

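The genes described here carry the symbols of eukaryotic translation initiation factors, the proteins that bring the small ribosomal subunit to an mRNA and place it on the start codon. They were chosen by name, as every gene of the deposited expression table whose array symbol starts with EIF and a digit from 1 to 6. This gave 52 of the 20110 genes or unnamed transcripts in the table, each represented by its probe with the highest mean. The array design holds 55 such symbols, and EIF2C1, EIF2C4 and EIF5A2 have no probe in the table. The name also takes in genes that are not initiation factors in the strict sense: EIF2C2 and EIF2C3 are old symbols of Argonaute proteins, which carry small RNAs, EIF1AD encodes a nuclear protein named for a shared domain, and EIF5A encodes a factor that helps the ribosome through difficult stretches in elongation.

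The study followed the mammary gland of 4 female yaks (Bos grunniens) through a lactation. Each animal was biopsied on 9 days counted from calving, day -30 and day -15 in late pregnancy and day +1, +15, +30, +60, +120, +180 and +240 after it, so that every day has the same 4 animals and no animal had another treatment. The biopsies alternated between the left and the right rear gland, and the side of each array is not given in the sources used here, nor are the animals' ages. The RNA was hybridised to 36 single-colour arrays of a cattle design, 1 array for each animal and day, after amplification from an oligo(dT) primer, which starts at the 3′ end of an mRNA. Day -30 serves as the reference, and a second series of comparisons follows neighbouring days.

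In the textbook account, eIF2 carries the initiator tRNA to the small subunit as a complex with GTP, eIF1 and eIF1A hold the scanning subunit open and eIF5 triggers GTP hydrolysis on eIF2 at the start codon. The large eIF3 complex joins the small subunit to eIF4F, which consists of the cap-binding eIF4E, the scaffold eIF4G and the helicase eIF4A. Initiation is held back in 2 well-known ways: by kinases that phosphorylate the alpha subunit of eIF2, so that its exchange factor eIF2B is blocked, and by proteins that occupy eIF4E until mTORC1 phosphorylates them. A lactating gland puts much of its protein synthesis into caseins and whey proteins.

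Levels are log2 values in which 0 is the 75th percentile of the array, so they compare days for 1 probe and not probes with each other. All 52 genes passed the filter on dim probes, and 50 of them lay well above background on all 4 arrays of every day, the exceptions being EIF1AY and EIF2S3Y. The mean level of the chosen probe over the 36 arrays ran from -4.72 for EIF2S3Y to 4.62 for EIF1. The brightness of the arrays changed along the course. Their 75th percentile lay between 4854 and 5752 intensity units at day -30, between 1029 and 2114 at day +15 and between 1278 and 2512 at day +60, and every array of day +15, +60, +180 and +240 was dimmer than every array of day -30. The mean of 8 milk protein genes lay between 2.39 and 3.70 at day -30, between 6.77 and 7.11 at day +15 and between 6.80 and 7.37 at day +60. At day +240 it was 6.38 to 7.56 in 3 animals and 3.32 in yak 1, inside the range of day -30, and at day +30 yak 3 stood at 3.25. On 2 arrays it was below 0, those of yak 4 at day +120 (-0.31) and day +180 (-0.14). By the table each day lies on a slide of its own and each animal on the same position of every slide, so that day cannot be told apart from slide. The scanner files are deposited under other samples than the table columns they equal, with another day for 27 of 36 arrays, and days here are those of the table.

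Over all 9 days, 17 of the 52 genes changed (limma F test, Benjamini-Hochberg adjusted p under 0.05), against 42.3% of all 20108 genes tested, so that the share of these genes, 17 of 52, was below the background. The 10 with the smallest p were EIF1AY, EIF2AK4, EIF1, EIF4G2, EIF2S2, EIF2D, EIF2S3Y, EIF4H, EIF3D and EIF4A3. Against day -30, no gene of the 52 passed at day -15 (limma, where 0% of all genes were called higher and 0.00497% lower, and 0 of the 52 had an unadjusted p under 0.05). None passed under any alternative run. At day +1, 2 fell and 0 rose (4.3% of all genes lower, 1.94% higher). At day +15, 13 rose and 1 fell (10.2% of all genes higher, 7.71% lower), and at day +60, 11 rose and 4 fell (12.6% higher, 16.7% lower). Days +30 and +120 had 0 rises and 2 falls each (4.26% of all genes lower and 2.12% higher at day +30, 2.7% and 1.06% at day +120). Day +180 had 3 rises and 3 falls (6.67% and 10.8%) and day +240 had 5 rises and 1 fall (6.86% and 7.08%). In all, 21 genes were called at 1 or more days, 16 of them higher and 5 lower.

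**Figure D1:**
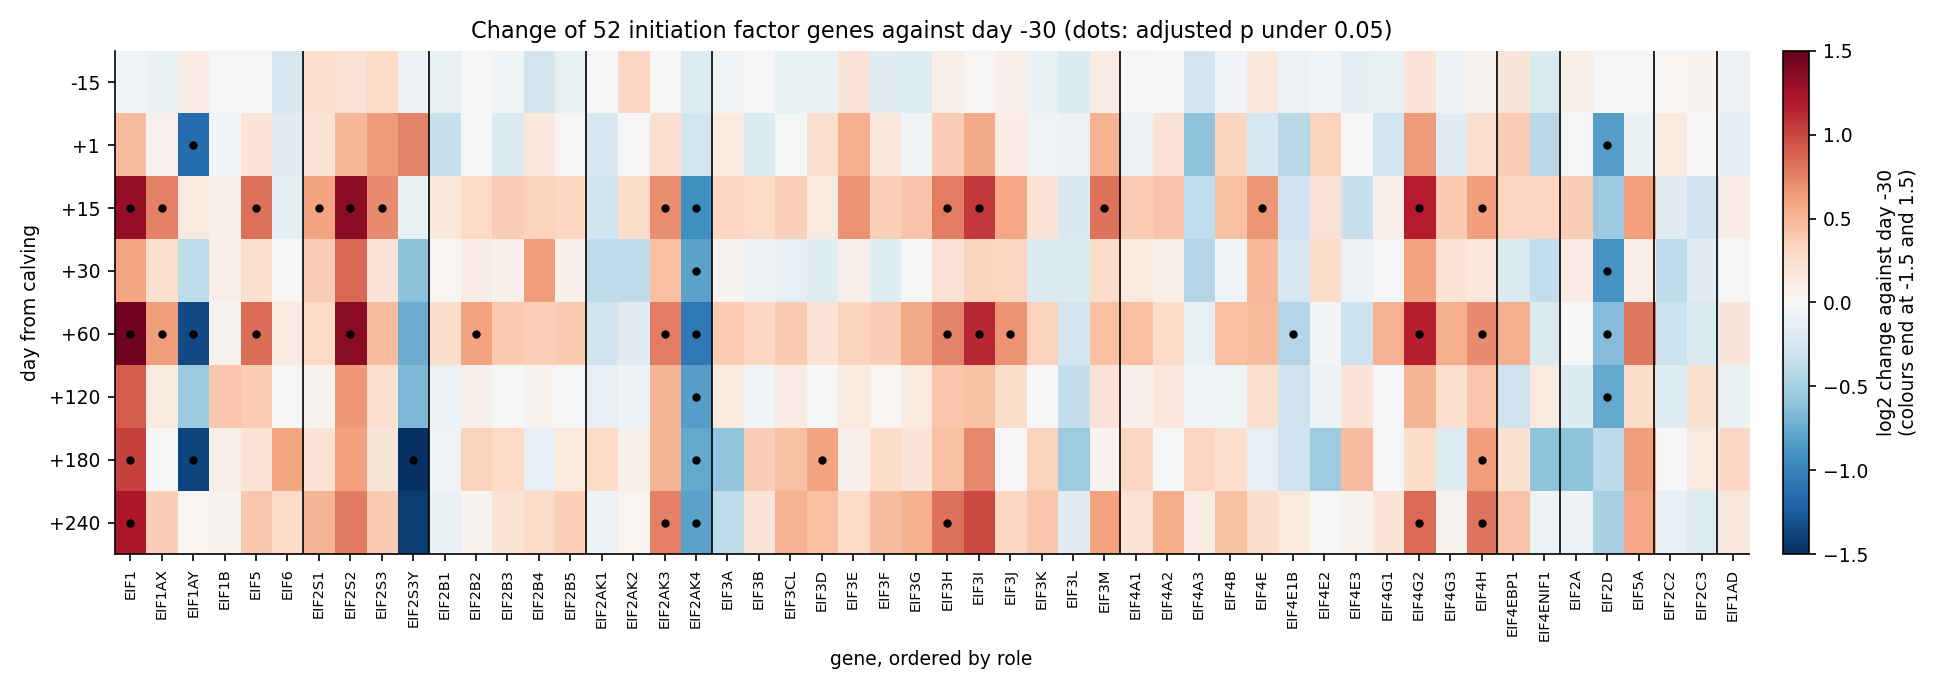
Difference of the mean log2 level of each day from day -30 for the 52 genes, in columns ordered by role and separated by lines, with days in rows; colours run from -1.5 (blue) to 1.5 (red) and dots mark an adjusted p under 0.05 (limma). Red fills most of the rows of day +15 and +60, with 13 and 11 rises, while EIF2AK4 is blue in every row and marked from day +15 on.

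The counts of rises at day +15 and +60 depended on the scaling. The median change of the 52 genes was 0.33 at day +15 and 0.36 at day +60, where the median of all tested genes was -0.01 and -0.12. Genes of high level moved the same way: in the uppermost of 4 equal groups by mean level, which holds 37 of the 52, the median change over all 5027 genes was 0.31 at day +15 and 0.36 at day +60, beside 0.40 and 0.45 for the 37. After quantile normalization, which gives all arrays the same distribution, 4 rose and 8 fell at day +15 (8.75% of all genes higher and 9.41% lower on that scale) and again at day +60 (10.1% and 11.7%), and the median change was -0.01 and -0.13. The 4 rises of 52 lie near the share over all genes at both days. With array brightness as a covariate, 0 rose and 1 fell at day +15 (0.87% and 2.64% of all genes), and 0 rose and 5 fell at day +60 (1.66% and 12.2%). With the median of each array set to 0 in place of the 75th percentile, the counts were 14 and 1 at day +15 (11.2% and 5.63%) and 17 and 2 at day +60 (16.1% and 11.5%), on a scale that moves the median of all genes at day +60 from -0.12 to 0.04. Of the 32 calls of a rise against day -30, quantile normalization kept 11, all of EIF1, EIF2S2, EIF4G2 and EIF2AK3, and the covariate kept 0. Of the 15 calls of a fall, each of these settings kept 13, but the normexp background correction kept 3, of EIF2D and EIF4E1B, and the days of the scanner files' samples kept 4, of EIF2AK4 and EIF2D. Those 2 settings kept 19 and 2 of the 32 rises. Day and brightness go together at day +15, +60, +180 and +240, so that the covariate cannot tell them apart there, and the part of brightness in the rises was not tested.

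**Figure D2:**
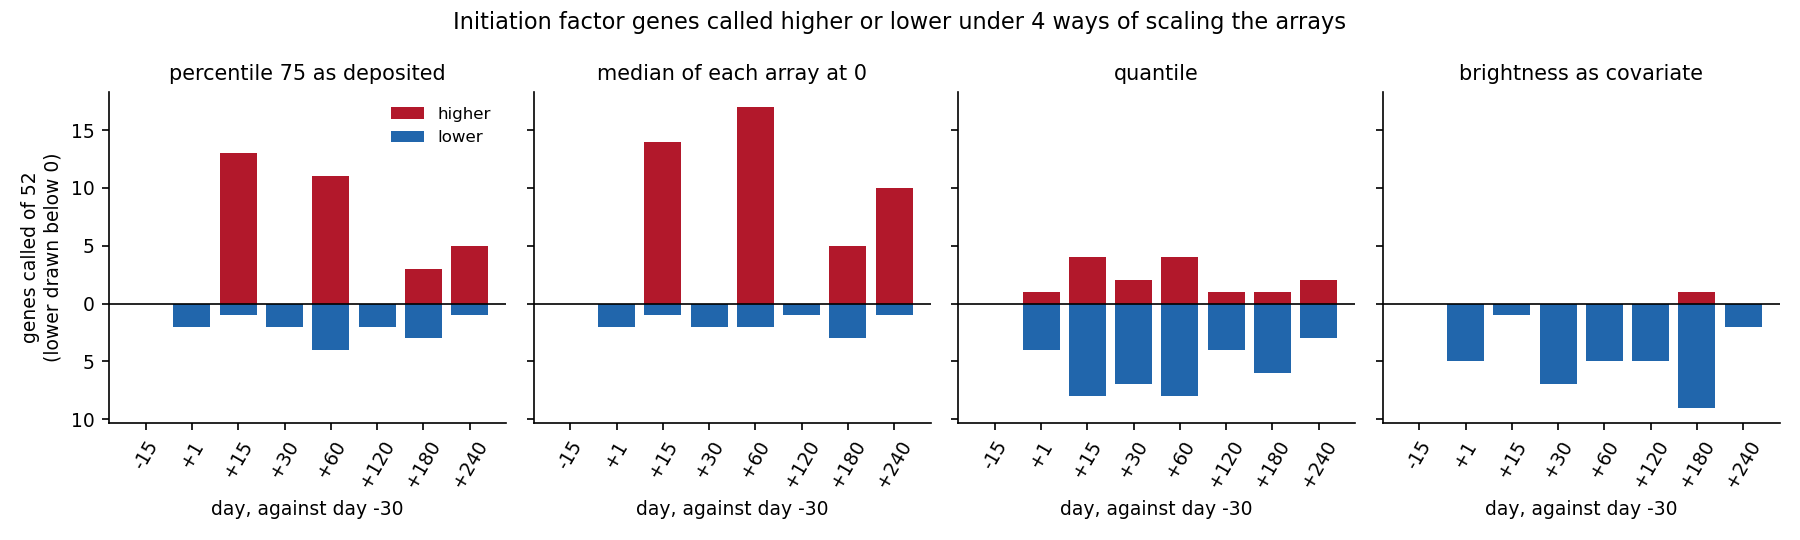
Number of the 52 genes called higher (red, above 0) and lower (blue, drawn below 0) against day -30 at each day, under 4 ways of scaling the arrays (limma, adjusted p under 0.05). The rises at day +15 and +60, 13 and 11 on the deposited scale, drop to 4 and 4 after quantile normalization and to 0 with brightness as a covariate, while falls are called on each scale.

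Among the factors for start codon selection and subunit joining, EIF1 had the largest called rise. Its levels were 4.02, 3.92, 3.79 and 3.70 in yaks 1 to 4 at day -30, 5.03, 5.07, 4.94 and 5.61 at day +15, and 4.97, 5.50, 5.49 and 5.27 at day +60. All arrays of the later 2 days lay above all arrays of day -30. EIF1 rose by 1.31 ± 0.31 at day +15 (log2 difference ± SE, n = 4 animals a day, adjusted p = 0.00676, higher in 4 of 4) and by 1.45 ± 0.31 at day +60 (adjusted p = 0.00121, 2.73-fold). It was also called at day +180 (1.02) and day +240 (1.21), and not at day +30, where yak 4 stood at 5.22 and yak 3 at 3.83, or at day +120, where yak 4, with low milk protein mRNA, had 3.79 and yak 2 had 5.77. With quantile normalization the change at day +60 was 0.53 and still called. The other 2 probes of EIF1 rose at day +15 too, by 1.17 and 1.05. As these are whole biopsies, a change in the cells that make up the gland and a change of the RNA in each cell cannot be told apart, here or below.

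EIF5, which makes eIF2 hydrolyse its GTP, rose by 0.83 ± 0.27 at day +15 and by 0.84 ± 0.27 at day +60 (adjusted p = 0.0333 and 0.0211). EIF1AX, the X-linked gene of eIF1A, had 2.91, 3.00, 2.99 and 3.04 at day -30 and 3.41, 3.77, 3.68 and 4.09 at day +15. It rose by 0.75 ± 0.23 at day +15 and by 0.63 ± 0.23 at day +60 (adjusted p = 0.0254 and 0.0388). EIF1B, a close relative of EIF1, and EIF6, which keeps the large subunit from joining too early, were not called at any day. Their largest differences from day -30 were 0.41 at day +120 for EIF1B and 0.59 at day +180 for EIF6.

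EIF1AY had the smallest p of all 52 genes and a course unlike EIF1AX. The symbol is that of the Y-linked copy of eIF1A, yet the animals are female, and the annotation in the files places the probe on chromosome X of the cattle assembly UMD 3.1, at chrX:143993429-143993488 on the minus strand (transcript NM_001145757). One of the 3 probes of EIF1AX, at chrX:130315044-130315103 on the plus strand (NM_001025329), covers the matching stretch. Both are printed 5′ to 3′ because these letters distinguish the EIF1AY probe from the closest probe of EIF1AX. Shifted by 1 base, 47 of 59 aligned bases are identical, and capitals mark the 12 that differ.
EIF1AX: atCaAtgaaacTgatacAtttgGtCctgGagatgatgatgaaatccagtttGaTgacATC
EIF1AY: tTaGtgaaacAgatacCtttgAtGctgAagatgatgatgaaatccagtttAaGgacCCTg

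The EIF1AY probe read -3.48, -3.48, -3.34 and -3.45 in yaks 1 to 4 at day -30 and -4.58, -4.91, -4.61 and -4.27 at day +1. It was back at -3.77, -3.41, -3.29 and -2.75 at day +15, low again at day +60 (-4.77, -5.16, -4.86 and -4.40) and at day +180 (-5.25, -4.50, -4.57 and -4.96), and at -3.73, -3.76, -3.12 and -3.03 on day +240. On the 3 low days no array reached any value of day -30, day -15, day +15 or day +240. EIF1AY fell by 1.15 ± 0.25 at day +1, by 1.36 ± 0.25 at day +60 and by 1.38 ± 0.25 at day +180 (adjusted p = 0.00546, 0.000258 and 0.000353, lower in 4 of 4 animals each time). Its level was close to the background of the arrays: 3 of 4 arrays were well above it at day +60 and day +180, and all 4 at the other days. With the normexp background correction the change at day +60 was 0.32, turned in sign and not called, at day +1 and day +180 it was -0.81 and -0.64, not called either, and by the day of the scanner file's sample it was -0.59, not called. The aligned EIF1AX probe rose at day +15 (0.66 ± 0.22) and was at -0.04 at day +1 and 0.04 at day +180, so that the dips of EIF1AY were not seen with it.

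Most of the calls from day to day were of EIF1AY too. Summed over the 7 steps between neighbouring days, 5 changes of the 52 genes were called (limma, against 0.718% of all gene and step pairs), and 4 of them were of EIF1AY: a fall of 1.27 from day -15 to day +1, a rise of 1.29 from day +1 to day +15, a fall of 0.98 from day +30 to day +60 and a rise of 1.41 from day +180 to day +240. The remaining call was a fall of EIF2D by 0.80 from day -15 to day +1. Without the replicate block 3 steps were called and with the normexp correction 0.

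**Figure D3:**
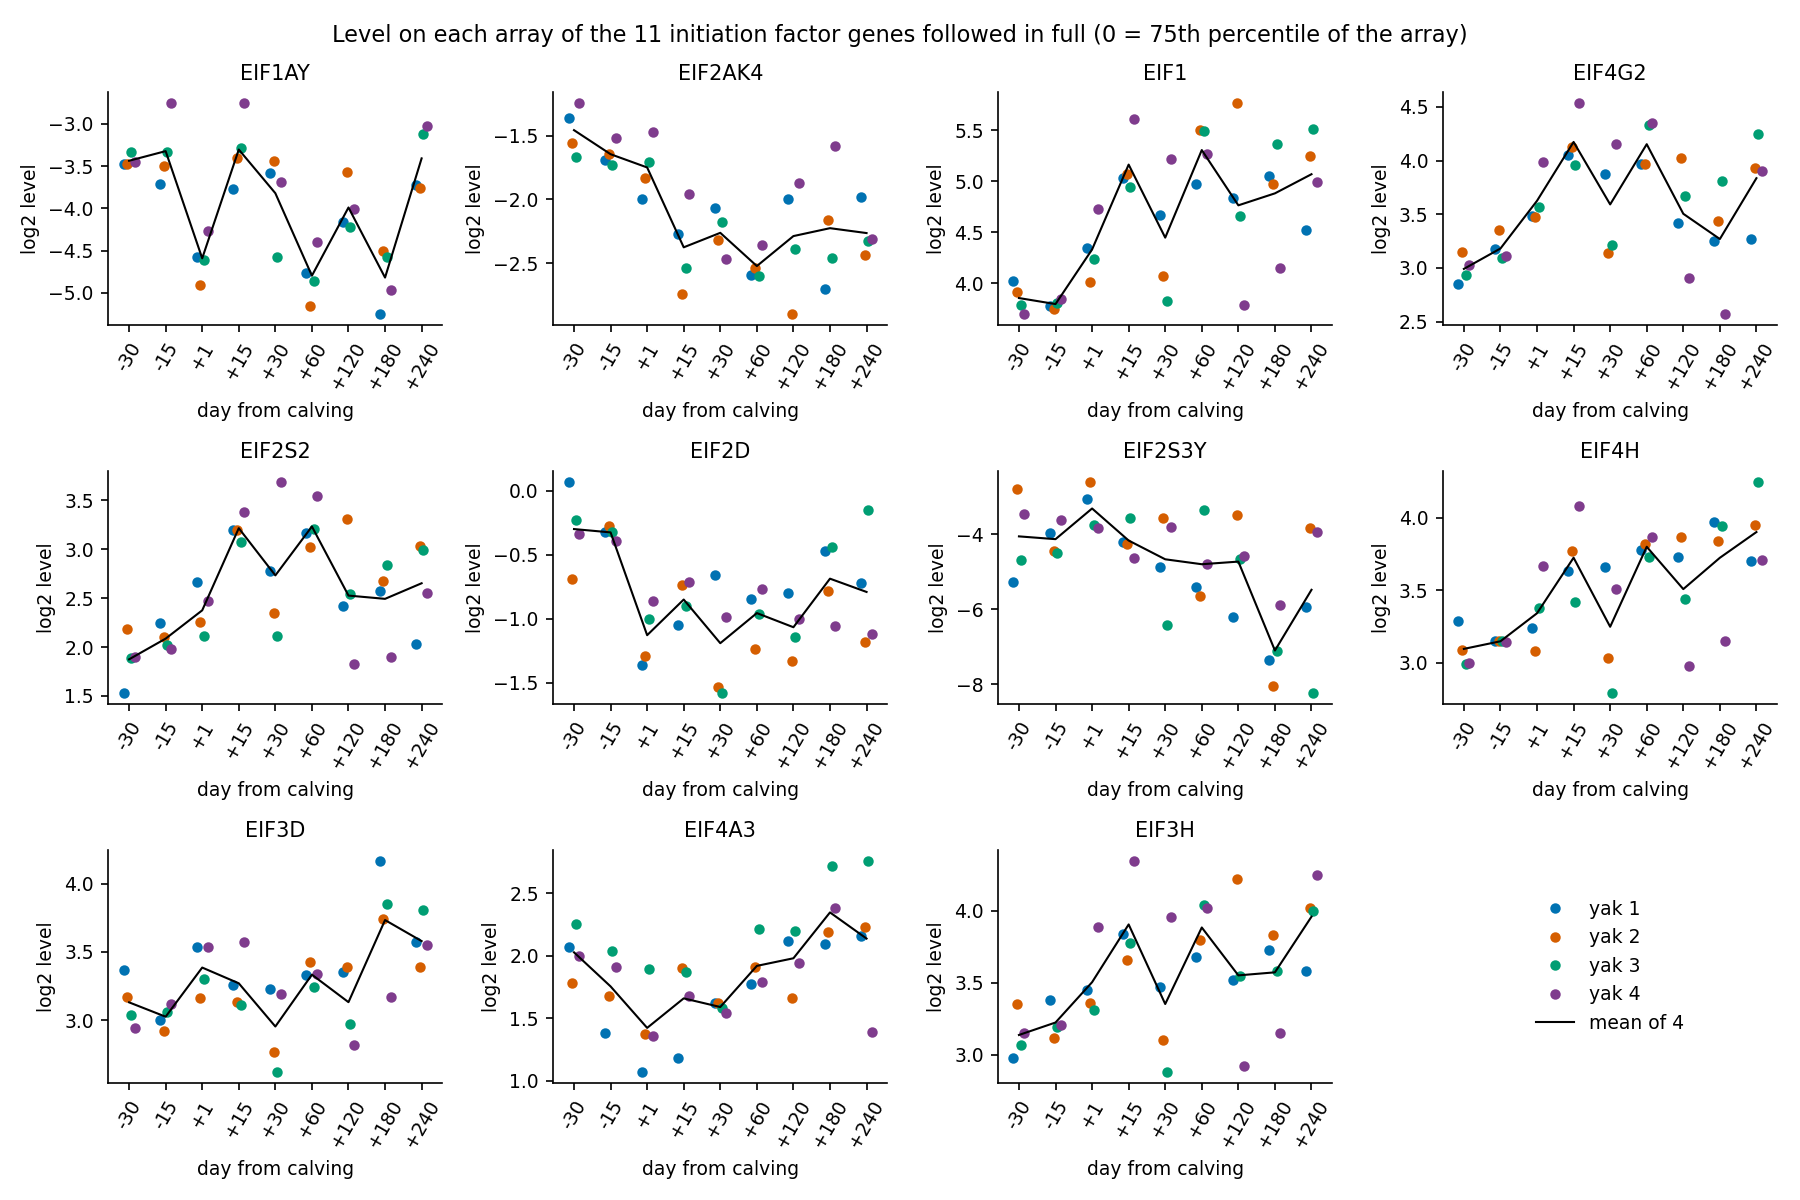
Level on each array (log2, 0 at the 75th percentile of the array) against day from calving for the 11 genes followed in full, with 1 colour for each yak and a line through the mean of 4. EIF1, EIF4G2 and EIF2S2 stand high at day +15 and +60, EIF1AY is low at day +1, +60 and +180, and EIF2AK4 stays under its day -30 mean from day -15 on.

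The eIF2 complex has 3 subunits, encoded by EIF2S1 (alpha, the target of the stress kinases), EIF2S2 (beta) and EIF2S3 (gamma, which binds GTP). All 3 rose at day +15, and EIF2S2 again at day +60. EIF2S2 read 1.53, 2.18, 1.89 and 1.90 at day -30, 3.20, 3.20, 3.07 and 3.38 at day +15 and 3.16, 3.02, 3.21 and 3.54 at day +60, with no overlap between these 2 days and day -30. The rise was 1.34 ± 0.28 at day +15 (adjusted p = 0.00352) and 1.36 ± 0.28 at day +60 (adjusted p = 0.001, 2.56-fold). It was 0.90 and 0.87 with quantile normalization, both called, and 0.45 and 0.43 with brightness as a covariate, neither called. EIF2S1 rose by 0.60 ± 0.19 and EIF2S3 by 0.71 ± 0.22 at day +15 (adjusted p = 0.0293 and 0.0266), the latter in 3 of 4 animals, since yak 2 went from 2.64 to 2.53. These 2 calls were less stable than those of EIF2S2: with quantile normalization the changes were 0.34 and 0.32, with brightness as a covariate 0.39 and 0.35, and by the days of the scanner files' samples 0.06 and -0.02, none of them called. The EIF2S1 call was also lost with the normexp correction, with the mean of its probes and without any 1 of the 4 animals, the EIF2S3 call without yak 1, 3 or 4, and both with only the 8 arrays of the days compared. A second probe of EIF2S2 (NM_001015621, chr13:64051139-64051847, minus strand, a span wider than the probe) is printed because it repeats the change on other letters of the same mRNA.
EIF2S2: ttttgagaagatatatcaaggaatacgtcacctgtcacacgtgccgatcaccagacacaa

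That probe rose by 1.12 ± 0.31 at day +15 and by 1.05 ± 0.31 at day +60. EIF2S3Y, named as the Y-linked copy of the gamma subunit, also lies on chromosome X of this assembly (chrX:144231899-144232049, minus strand, transcript ENSBTAT00000063725). Its single probe is printed because the gene has no other probe.
EIF2S3Y: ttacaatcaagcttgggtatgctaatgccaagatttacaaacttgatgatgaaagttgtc

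EIF2S3Y read -5.28, -2.80, -4.68 and -3.47 at day -30 and -7.36, -8.03, -7.10 and -5.89 at day +180. At day +180 it was well above background on 0 of 4 arrays, so its level there is only a bound. The bound was set by the weakest signal well above background on those arrays. On the deposited scale the mean of EIF2S3Y was at least 2.83-fold lower at day +180 than at day -30. The measured means were -4.06 at day -30 and -7.10 at day +180 (limma, adjusted p = 0.00436). It was not called at any other day, and the animals differed widely, from -8.23 to -3.83 at day +240. With the normexp correction the difference at day +180 was -0.92 and not called.

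The eIF2B genes encode the 5 subunits of the exchange factor that recharges eIF2 with GTP. With the chosen probes, 1 of them was called, at 1 day: EIF2B2 stood between 0.33 and 1.01 at day -30 and between 1.13 and 1.21 at day +60, a rise of 0.60 ± 0.20 (adjusted p = 0.0249). EIF2B3 passed the F test (adjusted p = 0.0374) with no single day called. Another probe of EIF2B4 rose by 0.96 ± 0.20 at day +180 and by 0.58 ± 0.20 at day +240 (adjusted p = 0.00131 and 0.0482), where the chosen probe read -0.12 and 0.29. The median change of the 5 was 0.31 at day +15 and 0.39 at day +60, or 0.20 and 0.26 with quantile normalization and -0.16 and 0.05 with brightness as a covariate.

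The kinases of eIF2 went different ways. EIF2AK4 encodes GCN2, which senses uncharged tRNA. It read -1.36, -1.56, -1.67 and -1.24 at day -30, -2.27, -2.74, -2.54 and -1.96 at day +15 and -2.59, -2.54, -2.60 and -2.36 at day +60. Every array of these 2 days was lower than every array of day -30. EIF2AK4 fell by 0.92 ± 0.20 at day +15 (adjusted p = 0.00459), by 1.07 ± 0.20 at day +60 (adjusted p = 0.000419, lower in 4 of 4 animals), and by 0.77 to 0.83 at the other 4 days from day +30 on, all called. It is the gene of the 52 with most calls, 6 of 8 days. At day +60 the fall was 0.86 with quantile normalization, 0.79 with brightness as a covariate and 0.84 by the day of the scanner file's sample, all called, and 0.45 with the normexp correction, not called. None of its 6 calls held with that correction. A second EIF2AK4 probe had the same sign at each day and was not called at any (-0.66 ± 0.28 at day +60).

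EIF2AK3 encodes PERK, the kinase of the endoplasmic reticulum that responds to unfolded protein. It read -0.88, -0.75, -0.75 and -0.43 at day -30, and -0.27, 0.15, -0.12 and 0.24 at day +15. PERK mRNA rose by 0.70 ± 0.22 at day +15, by 0.77 ± 0.22 at day +60 and by 0.75 ± 0.22 at day +240 (adjusted p = 0.0283, 0.0108 and 0.0235), and the 3 calls held with quantile normalization and not with the covariate. EIF2AK1, the haem-regulated kinase, and EIF2AK2, the kinase PKR that binds double-stranded RNA, were not called at any day with their chosen probes. A second probe of EIF2AK2 fell by 1.05 ± 0.32 at day +180 and by 1.19 ± 0.32 at day +240 (adjusted p = 0.0236 and 0.0173), where the chosen probe read 0.08 and 0.03.

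Of 13 genes of the eIF3 complex, read by their chosen probes, 3 rose at day +15, 3 at day +60, 1 at day +180 and 1 at day +240, and 0 fell. Over all genes 10.2%, 12.6%, 6.67% and 6.86% rose at these days, and 7.71%, 16.7%, 10.8% and 7.08% fell. EIF3I rose by 1.06 ± 0.35 at day +15 and by 1.13 ± 0.35 at day +60 (adjusted p = 0.0351 and 0.0168). Its other probe, nearer the 5′ end, changed less. Set against the chosen probe and relative to day -30, it differed by -0.60 and -0.69 at these days. Neither EIF3I call held with the mean of the 2 probes. EIF3H read 2.98, 3.35, 3.07 and 3.15 at day -30, 3.84, 3.66, 3.78 and 4.35 at day +15 and 3.58, 4.02, 4.00 and 4.25 at day +240. Its rises, 0.77 ± 0.23 at day +15, 0.75 ± 0.23 at day +60 and 0.82 ± 0.23 at day +240, were 0.10 and 0.04 at the first 2 of these days with quantile normalization, not called, and turned to -0.03 at day +60 with the covariate. EIF3M was called at day +15 alone (0.81) and EIF3J, which helps to release and recycle the small subunit, at day +60 alone (0.67).

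EIF3D, the subunit that can itself bind a cap, was called at day +180: 3.37, 3.17, 3.04 and 2.94 at day -30 against 4.17, 3.74, 3.85 and 3.17, a rise of 0.60 ± 0.18 (adjusted p = 0.0188) with overlap between the groups, since yak 4, with low milk protein mRNA, stayed at 3.17. The call was lost with the mean of its 3 probes. The chosen probe is that nearest the 3′ end. Set against it and relative to day -30, the probe nearest the 5′ end differed by -1.32 at day +180. With quantile normalization the change of the chosen probe was 0.15 at day +180 and not called, and at day +15 EIF3D was then lower (-0.47, called). On that scale the eIF3 genes as a group had 4 falls and 0 rises at day +15 and 5 falls and 0 rises at day +60. Of all genes, 9.41% and 11.7% fell there. The eIF3 medians were -0.28 at both days, where the deposited scale gave 0.36 and 0.38. The direction of the eIF3 genes therefore depends on the scaling. EIF3A, the largest subunit, EIF3B, EIF3E, EIF3F, EIF3G, EIF3K, EIF3L and the EIF3CL gene were not called at any day with their chosen probes. Other probes of EIF3A, EIF3B and EIF3CL were called lower at some days, as given below.

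Of 12 genes of eIF4F and its helpers, EIF4G2 changed most. It encodes a relative of eIF4G without the part that binds eIF4E, also known for initiation that does not use the cap. EIF4G2 read 2.85, 3.15, 2.93 and 3.03 at day -30, 4.05, 4.13, 3.96 and 4.54 at day +15, 3.97, 3.97, 4.33 and 4.35 at day +60 and 3.27, 3.93, 4.25 and 3.90 at day +240. None of these later arrays overlapped day -30. The rises were 1.18 ± 0.25, 1.16 ± 0.25 and 0.85 ± 0.25 (adjusted p = 0.00355, 0.00132 and 0.0251). With quantile normalization they were 0.51 and 0.46 at day +15 and +60, both called, while the rise at day +240 was not called. No rise of EIF4G2 was called with brightness as a covariate or by the days of the scanner files' samples. The probe of EIF4G2 nearer the 5′ end printed here (NM_001099859, chr15:42443347-42443725, plus strand) is shown because its reading at day +180 differs from those further downstream.
EIF4G2: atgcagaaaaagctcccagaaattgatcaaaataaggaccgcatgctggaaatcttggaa

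It rose by 0.84 ± 0.28 at day +15 and by 0.85 ± 0.28 at day +60, as the chosen probe did at chr15:42445508-42445567. At day +180, however, it read -0.49 ± 0.28, not called, where the chosen probe read 0.28 and a probe further downstream, at chr15:42446083-42446142, rose by 0.82 ± 0.24. Another EIF4G2 probe, nearest the 5′ end, was set against that nearest the 3′ end, relative to day -30. The difference was -0.86 at day +15, -0.96 at day +60 and -1.11 at day +240. The probes of EIF4G2 therefore did not all change by the same amount at the days of its rises.

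EIF4H, which helps the helicase eIF4A, read 3.29, 3.09, 2.99 and 3.00 at day -30 and 3.78, 3.82, 3.73 and 3.87 at day +60. It rose by 0.63 at day +15, 0.71 at day +60, 0.63 at day +180 and 0.81 at day +240 (SE 0.21 each, adjusted p = 0.0341, 0.0121, 0.033 and 0.0111). Its other 2 probes were not called at these days: they read -0.37 and -0.26 at day +15, 0.18 and 0.23 at day +60, -0.07 and -0.54 at day +180 and 0.13 and 0.36 at day +240. With quantile normalization the change at day +15 was -0.02, so the calls of EIF4H rest on 1 of 3 probes and are lost on the quantile scale. EIF4E, the cap-binding protein, rose by 0.66 ± 0.22 at day +15 alone (adjusted p = 0.0378). EIF4E1B, an eIF4E relative best known from oocytes, fell by 0.44 ± 0.15 at day +60 (adjusted p = 0.0289). That call held with quantile normalization, the normexp correction and brightness as a covariate. It was lost with the median of each array set to 0 and by the days of the scanner files' samples. Leaving out any 1 of the 4 animals, or using only the 8 arrays of the days compared, lost it too.

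EIF4A3, a helicase of the exon junction complex more than of initiation, passed the F test (adjusted p = 0.0139) with no day called against day -30. It read 2.07, 1.78, 2.25 and 2.00 at day -30, 1.07, 1.37, 1.89 and 1.36 at day +1 and 2.09, 2.19, 2.72 and 2.38 at day +180, lowest after calving and highest late in lactation. EIF4A1, EIF4A2, EIF4B, EIF4G1, EIF4G3, EIF4E2 and EIF4E3 were not called at any day with their chosen probes, although the scaffold EIF4G1 and the helicase EIF4A1 belong to the core of eIF4F.

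EIF4EBP1 encodes 4E-BP1, the inhibitor of eIF4E that mTORC1 switches off. It was not called at any day (0.32 ± 0.53 at day +15 and 0.54 ± 0.53 at day +60), and its spread between animals was wide in later lactation: 2.30, 4.42, 3.02 and 1.39 at day +120, and 4.57, 3.45, 4.04 and 1.23 at day +180. The lowest value of both days is that of yak 4, on the arrays with low milk protein mRNA. With brightness as a covariate EIF4EBP1 was lower at day +120 (-1.31 ± 0.40, adjusted p = 0.0349) and not called at the other days. This gene was singled out after its values were seen. EIF4ENIF1, which takes eIF4E into the nucleus, was not called with its chosen probe, and its second probe fell by 1.27 ± 0.38 at day +15 and by 1.20 ± 0.38 at day +180 (adjusted p = 0.0235 and 0.0256).

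EIF2D, which can deliver tRNA to the ribosome without GTP and acts after termination, fell after calving. It read 0.07, -0.69, -0.23 and -0.34 at day -30 and -1.36, -1.29, -1.0 and -0.86 at day +1, without overlap. The fall was 0.83 ± 0.21 at day +1 (adjusted p = 0.0169), 0.89 ± 0.21 at day +30, 0.66 ± 0.21 at day +60 and 0.77 ± 0.21 at day +120 (adjusted p = 0.0116, 0.0202 and 0.0333), in 4 of 4 animals each time. A second EIF2D probe (NM_001035104, chr16:4229714-4229773, minus strand) lies 8396 bases upstream on the genome and is printed because it gave the same course.
EIF2D: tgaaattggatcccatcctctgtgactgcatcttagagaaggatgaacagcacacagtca

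It fell by 0.72 ± 0.20 at day +1, by 0.58 ± 0.20 at day +60 and by 0.70 ± 0.20 at day +120. EIF2A, an alternative carrier of initiator tRNA, and EIF5A were not called at any day. Neither were EIF2C2 and EIF2C3 of the Argonautes, with median changes of -0.23 at day +15 and -0.27 at day +60, or EIF1AD.

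Several genes had further probes in the table, and these did not always repeat the chosen one. Of the 47 calls against day -30, 41 were of genes with more than 1 probe. Of the 72 readings of other probes in these comparisons, 65 had the sign of the chosen probe and 33 were called the same way. No other probe was called the opposite way. In 9 genes another probe was called where the chosen one was not. EIF3B, a core subunit of eIF3, is the clearest case: its chosen probe was not called at any day, while 2 of its other 4 probes, near the chosen one on chromosome 25, fell at day +1, +15, +30 and +60 (by 0.81 ± 0.18 and 1.03 ± 0.21 at day +15, adjusted p = 0.00597 and 0.00295). With the mean of all probes of a gene in place of the brightest, 9 rose and 1 fell at day +15, and 7 rose and 4 fell at day +60. The shares over all genes are not given for that setting, so these counts are not read as more or less than the share over all genes.

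At day +180, probes further from the 3′ end read lower. For 38 of the 52 genes with probes at least 500 bases apart on the genome, the probe nearest the 5′ end was set against that nearest the 3′ end, and the difference taken relative to day -30. At day +180 the median over the 38 genes lay between -0.55 and -0.27 on the 4 arrays, and 33 of 38 genes were below 0, where the median over all 7027 such genes lay between -0.71 and -0.28 and 78.4% were below 0. At day +15 the medians ran from -0.22 to 0.12 on the 4 arrays, with 22 of 38 genes below 0 (54.1% of all). At day +60, where many rises were called, 3 of the 4 arrays lay between -0.39 and -0.19 and that of yak 3 at 0.13, with 27 of 38 genes below 0 (63.3% of all). At day +120 there were 29 of 38 below 0 (61.9%) and at day +240 there were 26 (64.3%). EIF4A2 had a difference of -1.77 at day +180, EIF3CL of -1.58, EIF3D of -1.32 and EIF4H of -1.16. Single probes toward the 5′ end of EIF4A2 (-1.77 ± 0.51), EIF3A (-1.13 ± 0.39) and EIF3CL (-1.06 ± 0.38) were called lower at day +180 where the chosen probes were not, but so was a probe of EIF3A nearer the 3′ end than the chosen one (-2.34 ± 0.71). EIF3D and EIF4H are 2 of the 3 rises called at that day, and the part of this difference along the mRNA in the changes of that day and the others was not tested.

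**Figure D4:**
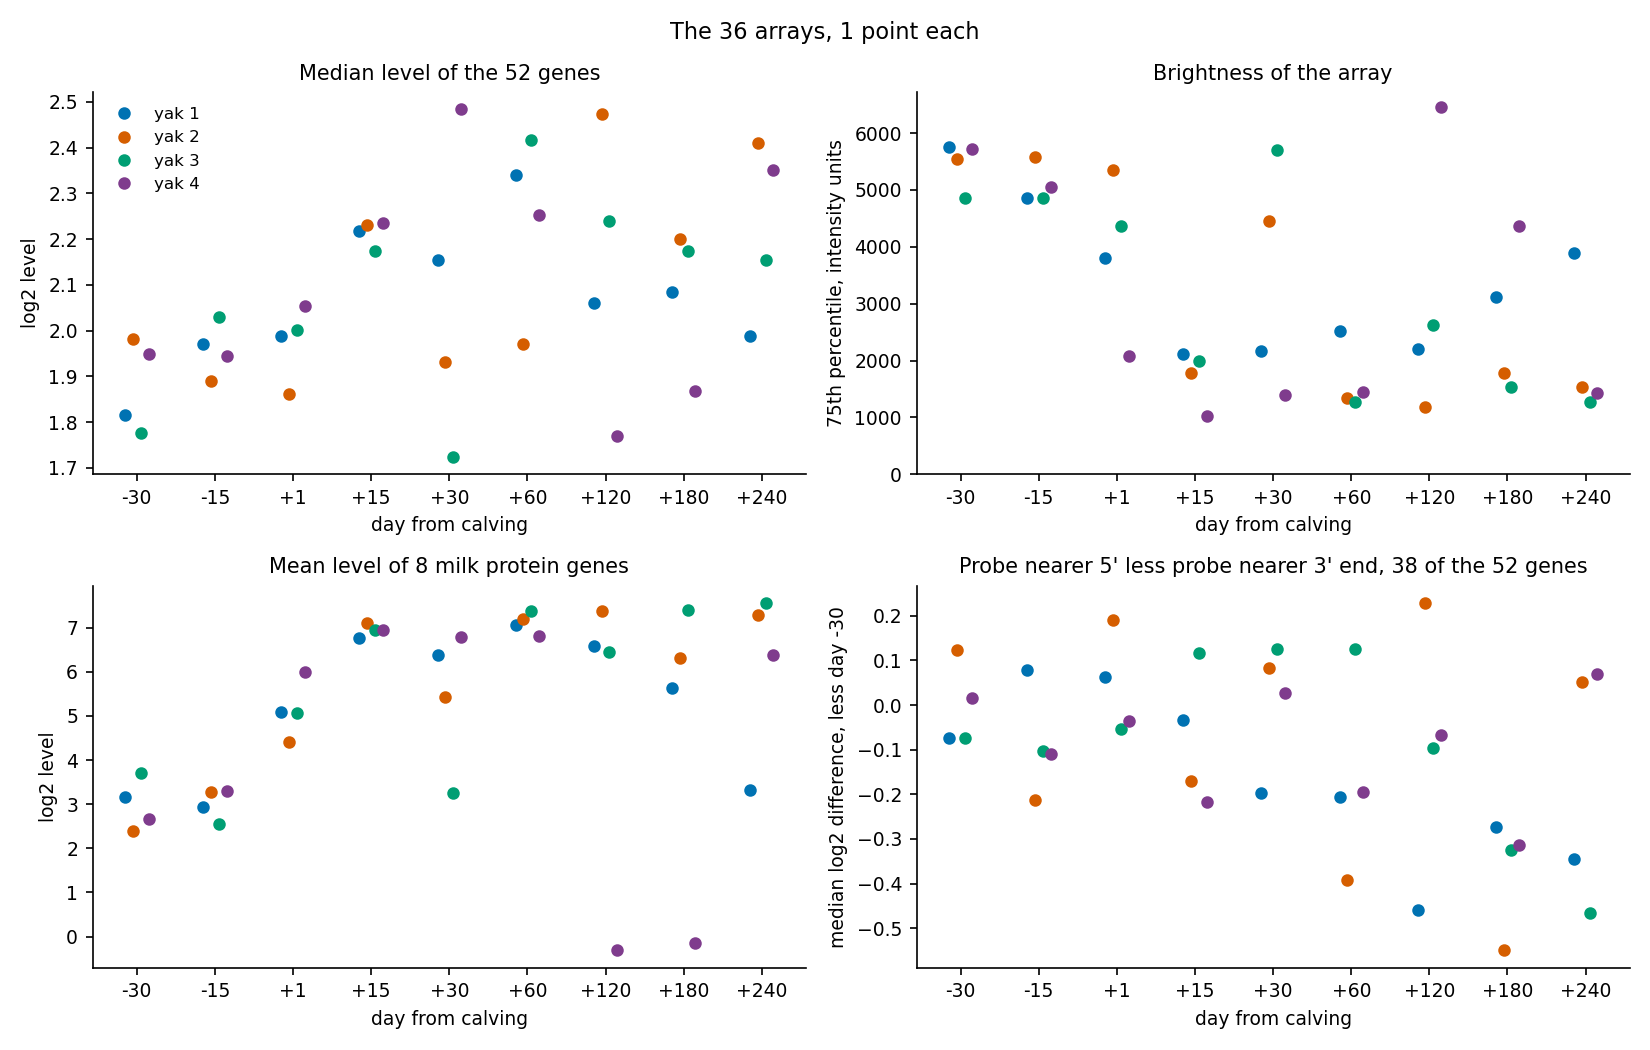
The 36 arrays by day from calving, with 1 colour for each yak: median log2 level of the 52 genes, 75th percentile of the signal in intensity units, mean log2 level of 8 milk protein genes, and the median difference between the probe nearest the 5′ and that nearest the 3′ end for 38 genes, relative to day -30. The arrays of day +15 have member medians from 2.17 to 2.24 above the 1.78 to 1.98 of day -30 and are dimmer than them, and all 4 arrays of day +180 lie under -0.27 in the last panel.

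Array by array, the median level of the 52 genes was 1.78 to 1.98 at day -30, 2.17 to 2.24 at day +15 and 1.97 to 2.42 at day +60. At day +30 it was spread widely, from 1.72 in yak 3 on an array with 5698 intensity units, to 2.48 in yak 4, with 1402 units and a milk protein mean of 6.79. At day +120 the lowest median, 1.77, was that of yak 4 on the brightest array of all (6450 units). Leaving out both yak 4 arrays with milk protein means below 0, a choice made after seeing the data, 25 of the 52 genes passed the F test. At day +180, 13 then rose and 3 fell, at day +240, 10 rose and 1 fell, and at day +120, 5 rose and 2 fell. All 32 rises and 15 falls of the full set of arrays stayed called in this run. Its shares over all genes are not given here, so the added calls are not read as a result about the 52 genes. Of 8 cell division genes, 4 fell at day +15 and 8 at day +60 (medians of -1.68 and -4.14). Over all genes, 7.71% fell at day +15 and 16.7% at day +60, while 10.2% and 12.6% rose. At these days 1 and 3 of 6 myoepithelial markers rose (medians of 0.48 and 0.88), and 1 and 2 of 5 endothelial markers (0.56 and 0.68). Of 7 luminal markers 1 and 2 rose (medians of -0.19 and 0.04). Among 7 markers of fibroblasts and stroma 1 rose at both days (-0.01 and 0.02), as did 1 of 6 leukocyte markers (0.03 and 0.18). Of 4 adipocyte markers 0 were called. In lists this small, 1 rise is close to the share over all genes. After quantile normalization 0 luminal markers rose and 2 fell at day +15, and 0 rose and 1 fell at day +60 (medians of -0.85 and -0.68). The stromal medians were then -0.77 and -0.71 with 0 called. Of the myoepithelial markers 0 were called at day +15, and 1 rose and 1 fell at day +60. The endothelial and leukocyte lists had 1 rise each at both days, and cell division 4 and 8 falls. On that scale 8.75% and 10.1% of all genes rose and 9.41% and 11.7% fell. The list means ran from 2.97 to 3.62 at day +15 and from 3.03 to 3.38 at day -30 for 7 luminal markers, and their part in the changes of the initiation factors was not tested.

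Genes around initiation were read from 4 lists chosen, like the genes above, with earlier results of these data known. Of 12 tested genes of the eIF2 stress response, 7 rose and 0 fell at day +15, and 7 rose and 1 fell at day +60, with median changes of 1.15 and 1.41. Over all genes, 10.2% rose and 7.71% fell at day +15, and 12.6% rose and 16.7% fell at day +60, which is the background for the 4 lists. TRIB3, a pseudokinase induced by ATF4, rose by 2.91 ± 0.71 at day +15 and by 3.48 ± 0.71 at day +60 (adjusted p = 0.00825 and 0.000846). NUPR1, a stress-induced nuclear protein, rose by 1.83 ± 0.45 and 2.11 ± 0.45, and VLDLR, a lipoprotein receptor, by 2.68 ± 0.59 and 2.78 ± 0.59. On the quantile scale 7 rose and 1 fell at day +15, and 8 and 1 at day +60, and with brightness as a covariate 0 were called at both days.

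Of 15 elongation and termination factors, 6 rose and 1 fell at day +15, and 7 rose and 0 fell at day +60. ETF1, the release factor that reads stop codons, rose by 0.96 ± 0.21 and 1.13 ± 0.21 (adjusted p = 0.00422 and 0.000311). EEF1A1, which brings aminoacyl tRNA to the ribosome, rose by 1.47 ± 0.37 and 1.33 ± 0.37, and EEF2, which moves the ribosome along, by 1.02 ± 0.32 and 1.10 ± 0.32. At day +60 ETF1 kept its rise with quantile normalization (1.10), while EEF1A1 read 0.01 and EEF2 0.05 there. On that scale 2 factors of the list rose and 2 fell at day +15, and 2 rose and 0 fell at day +60.

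Of 20 genes of eIF4F regulation and mTORC1, 3 rose and 2 fell at day +15, and 3 rose and 3 fell at day +60, with medians of -0.14 and -0.23, while 0 rose and 4 fell, then 0 rose and 2 fell, with quantile normalization. The 3 rises of 20 are close to the 10.2% and 12.6% of all genes called higher at these days. SESN2, an inhibitor of mTORC1 upon amino acid shortage, fell by 1.26 ± 0.41 and 1.79 ± 0.41 (adjusted p = 0.035 and 0.00238). RPS6, the ribosomal protein that the kinases under mTORC1 phosphorylate, rose by 0.96 ± 0.34 and 1.05 ± 0.34 and read -0.14 at day +60 with quantile normalization. PDCD4, which blocks eIF4A, fell by 0.83 ± 0.25 at day +180 (adjusted p = 0.0221).

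Of 16 other cofactors of initiation, 3 rose and 0 fell at day +15, and 5 rose and 0 fell at day +60, where quantile normalization gave 1 rise and 2 falls, then 2 and 2. DDX3X, a helicase that opens structured leaders, rose by 0.85 ± 0.26 at day +15 and by 1.07 ± 0.26 at day +60 (adjusted p = 0.0269 and 0.00368), and by 1.26 at day +60 with quantile normalization. DENR, which with MCTS1 does work like that of EIF2D, fell late in the course, by 1.08 ± 0.25 at day +120, 1.14 ± 0.25 at day +180 and 1.08 ± 0.25 at day +240 (adjusted p = 0.00854, 0.00199 and 0.00509). GTPBP1 passed the F test (adjusted p = 0.0149) with no day called.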

How the data were processed

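Gland RNA of 4 yaks at 9 days was read on 36 single-colour cattle arrays. The deposited expression table holds log2 values which, per the labels, come from GeneSpring 12 after a shift of the 75th percentile to 0. The deposited scanner files (Feature Extraction 10.7.3.1) hold processed, raw and background intensity without scaling between arrays and, per the file headers, other columns with 0 or 1 quality marks. Each column of the table equals a single scanner file less a constant, within 0.001 for at least 34990 of 34997 probes. Marks and brightness came from that file, and days from the samples of the table.

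Probes needed a well above background mark on 3 or more of the 4 arrays of some day, and each gene was read by its probe of highest mean. Days were compared in R 4.3.3 with the packages limma 3.58.1 and statmod 1.5.0, animal being a random block (consensus correlation 0.0531), two-sided, with Benjamini-Hochberg adjustment over 20108 genes. Standard errors pool all 36 arrays, and p-values rest on 4 animals. Arrays of the same animal deviated together from the mean of their day (mean r 0.152, and the best match was the same animal for 32 of 36). For other animals the mean r was -0.0509, a value that taking off the mean of 4 animals itself pushes below 0. Slide position follows the animal. The code was tested on simulated data. Alternatives were other scalings, filters, probes, blocks and day records, and each animal left out. Values in full are given for the 10 genes with the smallest F test p, up to 3 called genes with the largest change each way at each day, the genes of highest and lowest level, and up to 3 genes of each pathway list. Genes and lists were chosen with earlier results of these data known. Symbols are those of the array, of which 47 of 52 are also in the yak gene table. Coordinates are on the cattle assembly UMD 3.1. Plots were drawn in Python 3.11.15 with matplotlib 3.10.9, from tables made with pandas 2.3.3 and numpy 2.4.6.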

Additional observations from a re-analysis of the deposited data

Results flagged for a closer look

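EIF4H at day +180 had 1 array far from the other 3: yak 4 read 3.15, where the others lay between 3.84 and 3.97. This array is also 1 of the 2 with low milk protein mRNA. In 108 groups of 4 arrays examined, 1 was picked out in this way, where chance picks about 5.4.

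The 3 symbols that are on the array and not in the table gave some signal in the scanner files. The EIF2C1 probe was well above background on 16 of 36 arrays, that of EIF2C4 on 16 of 36 and that of EIF5A2 on 3 of 36. No comparison uses them.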

How the results depend on the processing

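The counts of called genes moved with the settings, and the causes were not tested. Not every count that moved is listed here. Except where given above, the shares over all genes are not stated for the settings of this section, those without single animals included. The counts therefore show how far the calls moved, and are not read as more or less than the share over all genes. No count moved when the filter on dim probes was dropped. Without the replicate block, the count between neighbouring days was 3 in place of 5, and no other call changed. Against day -30, quantile normalization gave 5 calls at day +1, 9 at day +30 and 5 at day +120, where the deposited scale gave 2 each. With array brightness as a covariate there were 5 at day +1, 1 at day +15, 7 at day +30, 5 at day +60, 5 at day +120, 10 at day +180, 2 at day +240 and 10 between neighbouring days. With medians set to 0 there were 1 at day +120, 5 rises and 3 falls at day +180, 11 calls at day +240 and 3 between neighbouring days. The normexp correction gave 10 over all days, 1 at day +1, 1 at day +30, 5 at day +60, 0 at day +120, 2 at day +180 and 0 between neighbouring days. With it 10 rose and 0 fell at day +15, and 4 rose and 0 fell at day +240. The mean of all probes gave 1 at day +120 and 2 at day +240. By the days of the scanner files' samples there were 7 over all days, 0 at day +1, 0 at day +15, 11 at day +30, 2 at day +60, 4 at day +120, 1 at day +180, 0 at day +240 and 0 between neighbouring days. With only the 8 arrays of the days compared there were 0 at day +120 and 3 at day +180. Without both low-milk arrays, an alternative chosen after seeing the data, there were 7 at day +120, 16 at day +180 and 11 at day +240.

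Leaving out each animal in turn, the counts ran from 3 (without yak 3) to 20 (without yak 4) over all days, from 0 to 2 at day +1, from 2 (without yak 3) to 8 at day +15, from 0 to 1 at day +30, from 7 to 14 at day +60, from 0 to 3 at day +120, from 2 to 11 (without yak 4) at day +180, from 0 (without yak 2 or 3) to 7 at day +240 and from 0 to 3 between neighbouring days. Of the 32 rises and 15 falls, 6 and 4 were called without yak 3, the rises being of EIF1, EIF2AK3, EIF2S2 and EIF4G2, 15 and 7 without yak 1, 12 and 5 without yak 2, and 21 and 11 without yak 4.

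Single changes that turned in sign were EIF1AY at day +60 (0.32, normexp), EIF4H at day +15 (-0.024 with quantile normalization and -0.0016 with the mean of probes) and EIF3H at day +60 (-0.035, brightness). A slide block could not be fitted, since each slide holds 1 day. Signal over background limits EIF1AY and EIF2S3Y.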
